A study of Danio rerio with 12 samples.

Results

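Whether leflunomide changed the transcriptome of zebrafish embryos by the same amount with and without knockdown of tif1g was measured as the interaction of morpholino and drug, in 12 of the 12 libraries of the series. Each library came from whole tailbud-stage embryos, 109 wild-type embryos of the TU strain pooled per sample, in 4 groups of 3. Every embryo carried an oligo: 1 ng of Standard Control morpholino in the control groups, or 1 ng of a morpholino that covers the start codon of tif1γ (gene trim33) in the tif1g groups, injected at the 1 to 2 cell stage. Control and tif1g embryos were each kept in DMSO or in 7 µM leflunomide from 5.3 to 10 hours after fertilisation, and the series text says that clutches were divided over the treatments. The 4 groups are therefore control DMSO, control leflunomide, tif1g DMSO and tif1g leflunomide. A morpholino knockdown is transient and, like the drug, acts on the whole embryo, so these libraries do not resolve cell types. The sources used here do not say whether each replicate number was a separate clutch. P-values measure the spread between these pools that is left after differences between replicate numbers are removed. Part of this spread may be technical. In such bulk samples, fewer cells of a type and less RNA per cell cannot be told apart.

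The protein TIF1γ (TRIM33) is a chromatin-bound regulator of transcription, and zebrafish that lack it (moonshine mutants) fail to make red blood cells. Leflunomide is converted to a metabolite that inhibits DHODH, the enzyme of the inner mitochondrial membrane that carries out a step of pyrimidine synthesis and passes electrons to coenzyme Q. An interaction asks whether the fold change caused by one treatment depends on the other. Here it is the log2 fold change of leflunomide against DMSO in tif1g embryos minus the same in control embryos. A gene with a positive interaction had a higher leflunomide to DMSO ratio in tif1g embryos than in control embryos, and a gene with equal ratios has an interaction of 0.

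Library totals ran from 27574593 to 32088082 counts, and levels are given as TMM-scaled CPM, the counts of a gene relative to those of its library. The targeted transcript trim33 (ENSDARG00000016181) stood at 72.9, 80.6 and 71.2 CPM in control DMSO, 80.4, 85.6 and 78.6 in control leflunomide, 373, 395 and 373 in tif1g DMSO and 433, 418 and 417 in tif1g leflunomide. All 6 tif1g libraries were above all 6 control libraries. This morpholino blocks translation, so the RNA level does not measure the knockdown. The trim33 interaction was 0.03 ± 0.07 (log2 ± SE) with an adjusted p of 0.868, and its sign turned with the scaling, at -0.016 with upper-quartile factors and -0.057 with library totals. The transcript of the drug's target, dhodh (ENSDARG00000051889), read 24.5, 21.2 and 24.5 CPM in control DMSO, 23.1, 19.3 and 23.7 in control leflunomide, 11.8, 11.97 and 13.5 in tif1g DMSO and 14.2, 13.3 and 15.09 in tif1g leflunomide. It was lower in every tif1g library than in every control library, and leflunomide and DMSO libraries overlapped in both kinds of embryo. Its interaction of 0.29 ± 0.12 was not called (adjusted p = 0.179).

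With replicate number as a block, the interaction was called for 1067 of 21400 tested genes, 4.99%, by the quasi-likelihood test of edgeR with p adjusted by Benjamini-Hochberg, a threshold of 0.05 and no minimum fold. It was higher in 721 genes (3.37% of those tested) and lower in 346 (1.62%). The changes were small: 37 of the higher and 99 of the lower genes reached 1.5-fold, and 10 and 37 reached 2-fold. The interaction had a median of 0.31 (log2, quartiles 0.26 and 0.40) in the genes called higher, -0.45 (quartiles -0.63 and -0.35) in those called lower, and 0.01 over all genes tested. Genes called higher were mostly genes that leflunomide lowered in control embryos. Their median leflunomide effect was -0.40 in control embryos and -0.08 in tif1g embryos, and 689 of the 721 were themselves called lower with leflunomide in control embryos, where the background was 17.8%. Genes called lower had the mirror pattern, with a median leflunomide effect of 0.56 in control and 0.09 in tif1g embryos, and 338 of the 346 were called higher with leflunomide in control embryos, against a background of 13.5%. The leflunomide effect was larger in size in control than in tif1g embryos for 687 of the 721, for 335 of the 346, and for 14383 of all 21400. These genes were picked for the interaction, so their simple effects are a description of its shape.

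The morpholino effect, read from the same model, differed in step. Genes called higher had a median tif1g against control change of -0.25 (log2) in DMSO and 0.07 in leflunomide. Genes called lower had medians of 0.58 in DMSO and 0.12 in leflunomide. Both kinds of called gene thus differed more between morpholinos in DMSO than in leflunomide. The shift of the morpholino effect from DMSO to leflunomide is the interaction itself, by which these genes were picked. It is therefore no separate result. Over all tested genes the knockdown was called in 9031 (42.2%) in DMSO, 4267 higher (19.9%) and 4764 lower (22.3%), and in 7215 (33.7%) in leflunomide, 3639 higher (17%) and 3576 lower (16.7%). The called genes also differed in kind. Genes called higher were abundant, with a median log2 CPM of 6.88 against 2.95 over all tested genes, and 8.88% had no symbol or a clone name. Genes called lower had a median log2 CPM of 4.89, and 33.5% had no symbol or a clone name, against 23.2% over all tested genes. Levels per transcript length were not computed here, so these medians compare counts per gene and not numbers of transcripts.

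The leflunomide effect in control embryos and that in tif1g embryos rest on separate libraries and can be set side by side. In control embryos 6709 genes were called (31.4%), 2899 higher and 3810 lower, and in tif1g embryos 1518 (7.09%), 578 higher (2.7%) and 940 lower (4.39%). The same direction was called in both for 1242 genes, which is 18.5% of the control calls and 81.8% of the tif1g calls, and the opposite direction for 2. Over the 14980 genes with a mean log2 CPM of at least 1, Pearson's r between the effects was 0.579 and Spearman's rho 0.610, a description across genes that share libraries and depth within each kind of embryo. The SD of the log2 effects over these genes was 0.306 in control and 0.196 in tif1g embryos. The least-squares slope of tif1g on control effects was 0.371. Error in the control effects pulls such a slope toward 0, so it does not measure the ratio of the drug effects. Of the 1518 genes called in tif1g embryos, 994 had the larger effect in size in control embryos. Over all tested genes this held for 14383 of 21400, a similar share, so it does not set the called genes apart.

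**Figure D1:**
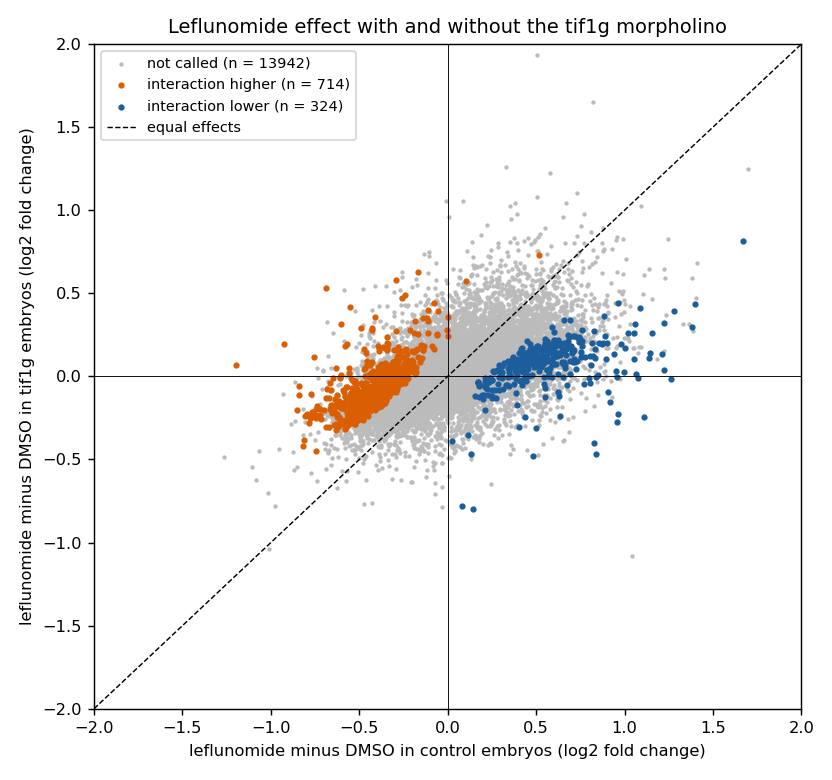
Leflunomide against DMSO (log2 fold change) in control embryos (x axis) and in tif1g embryos (y axis) for the 14980 genes with a mean log2 CPM of at least 1, 1 point a gene. Orange points (714) were called higher and blue points (324) called lower in the interaction, and most lie off the dashed line of equal effects on the side where the control effect is the larger in size.

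These calls rest on the replicate block. Without it, 0 genes were called, the smallest adjusted p was 0.0985, and 2560 genes had an unadjusted p under 0.05. DESeq2 with the block called 920 higher and 321 lower, and limma voom 773 and 355. DESeq2 gave no adjusted p for 11617 of the 21400 genes, and these count as not called. A count of 0 by DESeq2 in a list therefore covers only the members it assessed. The split of higher and lower calls depended on the scaling: 67.6% of calls were higher with TMM, 45.2% with upper-quartile factors and 26.5% with library totals alone, where the median over all genes moved to -0.07. Every one of the 1067 genes kept its direction in each of the alternatives that gave it a value. That was likely from the start. The alternatives reuse the same libraries, and the smallest interactions among called genes were 0.195 (higher) and 0.206 (lower) in size. Leaving out replicate number 1 left 35 calls, number 2 left 19 and number 3 gave 1173. Single libraries moved the count by over 1.5 times as well. It was 615 without control DMSO replicate 1, 321 without control leflunomide replicate 1, 439 without tif1g DMSO replicate 1, 472 without control leflunomide replicate 2, 336 without tif1g DMSO replicate 2, 435 without tif1g leflunomide replicate 2, and 1725 without control DMSO replicate 3. The interaction had 1 sign within all 3 replicate numbers in 99.6% of the genes called higher and 98.6% of those called lower, against 40.5% of all genes tested. The called genes were picked by a test on these same libraries, which favours 1 sign, so the difference in shares is no separate support.

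Several measures of whole libraries set control DMSO apart from the other 9 libraries. Transcripts of olfactory receptors, which belong to sensory neurons that form later, summed to 79.3 to 102 CPM in control DMSO and to 139 to 163 CPM in control leflunomide, and in tif1g embryos to 127 to 154 CPM with DMSO and 151 to 160 CPM with leflunomide. Unlike the other levels, these sums are CPM of the library total, without TMM factors. The nuclear non-coding RNA malat1 took 0.269 to 0.341% of the counts of control DMSO and 0.501 to 0.561% of those of control leflunomide, and in tif1g embryos 0.393 to 0.437% with DMSO and 0.480 to 0.550% with leflunomide. On both measures every control DMSO library was below every other library. The mitochondrial genome took 0.763 to 0.841% of counts in control DMSO and 0.944 to 1.12% elsewhere, and TMM factors were 0.926 to 0.958 in control DMSO and 0.979 to 1.05 elsewhere. Genes with at least 1 count numbered 26228 to 26420 in control DMSO and 26504 to 27155 elsewhere. Library totals went the other way, at 29845686 to 32088082 counts in control DMSO and 27574593 to 29691037 elsewhere. The part of these library differences in the interaction was not tested. A difference of the control DMSO pools from the other 9 and a smaller drug effect in tif1g embryos give the same interaction, and cannot be told apart in this design.

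**Figure D2:**
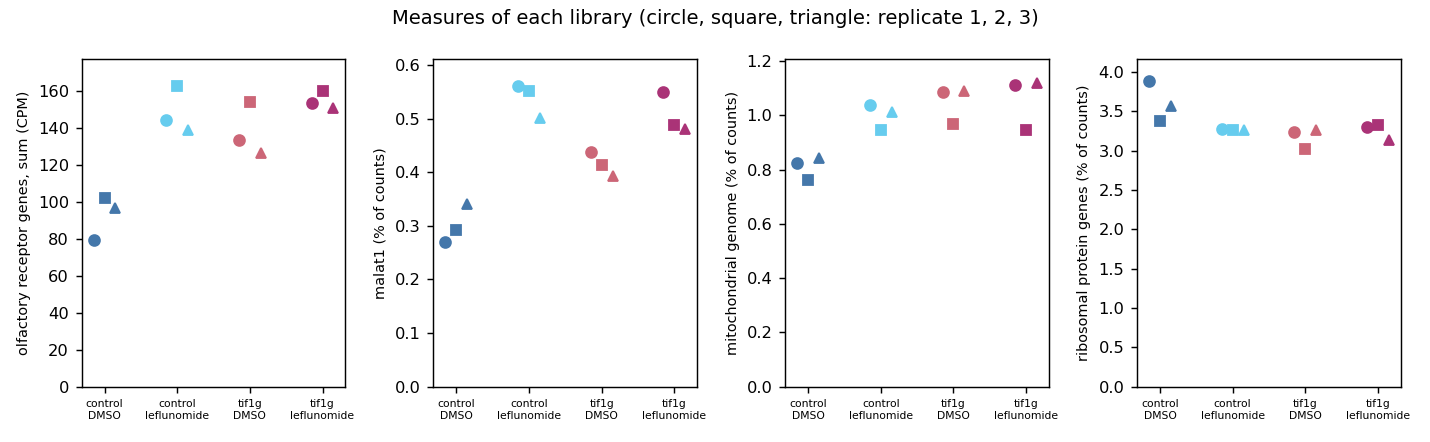
The summed CPM of olfactory receptor genes (of library totals, without TMM factors) and the percentage of counts from malat1, from the mitochondrial genome and from ribosomal protein genes (y axes) in each of the 12 libraries by group (x axis), 1 point a library. Control DMSO holds the 3 lowest values of the first 3 measures (79.3 to 102 CPM, 0.269 to 0.341% and 0.763 to 0.841%) and the 3 highest of the fourth (3.38 to 3.88%).

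Among targets of p53, the transcription factor that answers DNA damage and other stress, 5 of 36 tested genes (13.9%) were called higher and 0 lower, against 3.37% and 1.62% over all tested genes. The counts of every list below stand against these same shares. The list median was 0.20, against 0.01 over all tested genes, with a median leflunomide effect of -0.14 in control and 0.11 in tif1g embryos. The first by p was rps27l (ENSDARG00000100513), a ribosomal protein paralog that p53 induces in mammals, at 38.7, 30.8 and 34.5 CPM in control DMSO, 26.1, 25.6 and 25.2 in control leflunomide, 48.0, 35.3 and 44.6 in tif1g DMSO and 56.3, 53.2 and 46.2 in tif1g leflunomide. Leflunomide libraries were all below DMSO libraries in control embryos, and in tif1g embryos they were higher with a slight overlap. The interaction of rps27l was 0.72 ± 0.11 (adjusted p = 0.000687), made of a leflunomide effect of -0.43 in control embryos (adjusted p = 7.40e-05) and of 0.29 in tif1g embryos (adjusted p = 0.0144). It was also called without replicate number 1, 2 or 3, with adjusted p of 0.0354, 0.00789 and 0.000160 in turn, and lost without the block (adjusted p = 0.121).

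The gene casp8 (ENSDARG00000058325), for an initiator caspase of the death receptor pathway, stood at 9.66, 8.73 and 11.9 CPM in control DMSO, 6.62, 6.19 and 7.14 in control leflunomide, 22.4, 12.5 and 16.9 in tif1g DMSO and 25.04, 20.6 and 18.1 in tif1g leflunomide. Every tif1g library was above every control library, and leflunomide libraries were below DMSO libraries without overlap in control embryos only. Its interaction was 0.92 ± 0.20 (adjusted p = 0.0133), from a leflunomide effect of -0.60 in control embryos (adjusted p = 0.00492) and 0.32 in tif1g embryos (adjusted p = 0.171). For phlda3 (ENSDARG00000037804), whose product restrains the kinase Akt, levels were 9.12, 8.52 and 12.2 CPM in control DMSO, 7.72, 6.51 and 8.21 in control leflunomide, 23.2, 17.4 and 19.7 in tif1g DMSO and 26.2, 27.9 and 22.4 in tif1g leflunomide. The groups were ordered as for casp8, with overlap between DMSO and leflunomide in tif1g embryos only. Its interaction was 0.77 ± 0.18 (adjusted p = 0.0156). The other called members were sesn3, a stress-induced sestrin, at 0.26 ± 0.06 (adjusted p = 0.0156), and cdkn1a, the cell cycle inhibitor p21, at 0.49 ± 0.14 (adjusted p = 0.0409). Of the best known targets, mdm2, the ubiquitin ligase of p53, had 0.52 ± 0.13 (adjusted p = 0.0565) and ccng1, cyclin G1, 0.36 ± 0.10 (adjusted p = 0.0657), and neither was called.

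**Figure D3:**
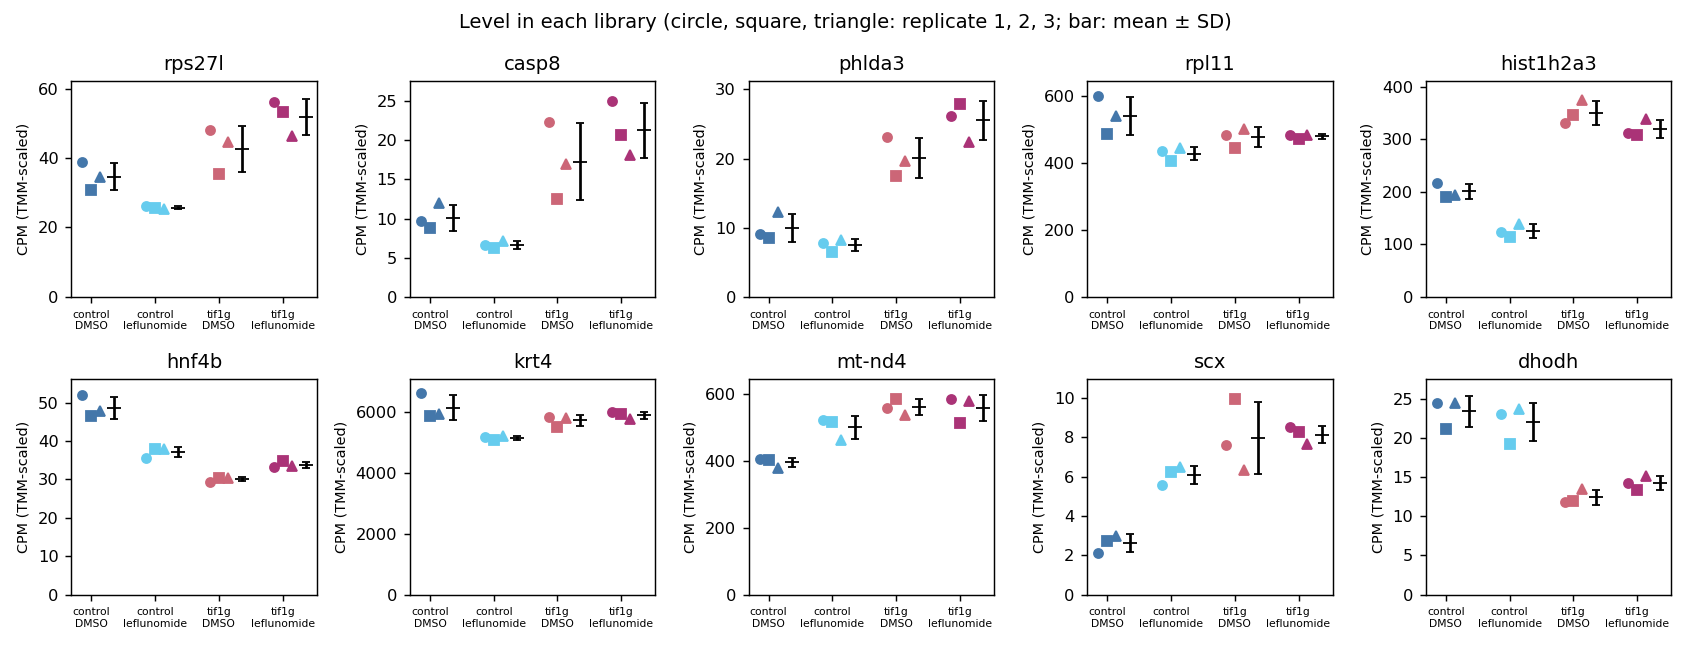
TMM-scaled CPM (y axes, from 0) of 10 genes in each library by group (x axis), with the group mean ± SD (n = 3) as a bar. In rps27l, casp8 and phlda3 leflunomide libraries lie below DMSO in control embryos and mostly above it in tif1g embryos, and in rpl11, hist1h2a3 and krt4 the drop from control DMSO to control leflunomide has no counterpart of like size in tif1g embryos.

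Genes of the cytosolic ribosome gave the highest share of calls among the 49 lists. Genes called higher were abundant (median log2 CPM 6.88, against 2.95 over all tested genes), and the part of level in the shares of lists was not tested. Of 84 tested genes, 67 (79.8%) were called higher and 0 lower, with interactions of 0.20 to 0.41. The list median was 0.27, from a median leflunomide effect of -0.29 in control and -0.01 in tif1g embryos. For rpl11 (ENSDARG00000043509), a large-subunit protein, the libraries read 599.6, 486 and 541 CPM in control DMSO, 436, 405 and 445 in control leflunomide, 485, 444 and 503 in tif1g DMSO and 485, 472 and 483 in tif1g leflunomide. Control DMSO libraries were all above control leflunomide libraries, and the tif1g leflunomide libraries lay inside the range of tif1g DMSO. Its interaction was 0.35 ± 0.07 (adjusted p = 0.00268). The stalk protein gene rplp2l (ENSDARG00000011201) read 451, 389 and 399 CPM in control DMSO, 322, 323 and 333 in control leflunomide, 315, 295 and 337 in tif1g DMSO and 337, 341 and 313 in tif1g leflunomide. Control DMSO stood above all 9 other libraries in this gene. Its interaction was 0.41 ± 0.07 (adjusted p = 0.00207), and that of rps20, a small-subunit protein, 0.35 ± 0.07 (adjusted p = 0.00286). The list also held rps6kl1, a kinase-like gene and not a ribosomal protein, which was not called. Without replicate number 1 or 2 the count of called members was 0, without number 3 it was 67, with library totals 25, and without single libraries 18 to 72.

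The machinery that makes and runs ribosomes followed with lower shares, against 3.37% called higher and 1.62% lower over all tested genes. In ribosome biogenesis and RNA polymerase I, 23 of 92 genes were called higher and 0 lower (median 0.17). Among them utp15, a component of the small-subunit processome, had 0.43 ± 0.07 (adjusted p = 0.00137), rrs1, a large-subunit assembly factor, 0.34 ± 0.07 (adjusted p = 0.00403) and ddx21, a nucleolar RNA helicase, 0.30 ± 0.06 (adjusted p = 0.00529). The median leflunomide effect in this list was -0.34 in control and -0.17 in tif1g embryos. Aminoacyl-tRNA synthetases had 6 of 35 called higher (median 0.17), splicing factors 14 of 68 (median 0.15) and heat shock and unfolded protein genes 8 of 35 (median 0.18), each with 0 lower. The chaperone gene of the endoplasmic reticulum hspa5 (BiP) had 0.34 ± 0.07 (adjusted p = 0.00557). Eukaryotic initiation and elongation factors, a family added after values were seen, had 16 of 77 called higher and 0 lower (median 0.14). Mitochondrial ribosomal proteins had 5 of 75 called higher (6.67%) and 0 lower, although their median of 0.20 was close to that of the p53 list. Mitochondrial import, chaperones and dynamics had 7 of 55 called higher and 0 lower (median 0.16).

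The median interaction was above 0 in nuclear-encoded genes of the respiratory chain and below 0 in mitochondrially encoded mRNAs. Of 88 nuclear-encoded genes 21 were called higher and 0 lower, and 83 had an interaction above 0 (median 0.27), with a median leflunomide effect of -0.41 in control and -0.13 in tif1g embryos. The complex IV gene cox7c (ENSDARG00000104537) read 86.4, 85.0 and 81.5 CPM in control DMSO, 52.0, 52.0 and 58.9 in control leflunomide, 60.3, 56.2 and 56.8 in tif1g DMSO and 51.4, 51.0 and 49.9 in tif1g leflunomide. Control DMSO lay above the other 9 libraries, and leflunomide libraries were below DMSO libraries without overlap in both kinds of embryo. Its interaction was 0.45 ± 0.08 (adjusted p = 0.00182), and that of the ATP synthase gene atp5mf 0.51 ± 0.10 (adjusted p = 0.00292). Of the 13 mRNAs that the mitochondrial genome encodes, 7 were called lower and 0 higher, and all 13 had an interaction below 0 (median -0.21). The transcript mt-nd4 (ENSDARG00000063917), for a complex I subunit, read 405, 402 and 380.0 CPM in control DMSO, 523, 518 and 462 in control leflunomide, 559, 587 and 539 in tif1g DMSO and 585, 514 and 579 in tif1g leflunomide. Control DMSO lay below the other 9 libraries, and DMSO and leflunomide overlapped in tif1g embryos. Its interaction was -0.34 ± 0.07 (adjusted p = 0.00436), that of mt-nd5 -0.24 ± 0.06 (adjusted p = 0.0156) and that of mt-co1 -0.21 ± 0.06 (adjusted p = 0.0216). The mitochondrial share of counts also set control DMSO apart, and its part in these calls was not tested.

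Around the drug's target, shares of genes called higher ran from 0 to 28.6%, against 3.37% over all tested genes. In pyrimidine synthesis and salvage 3 of 33 (9.09%) were called higher and 0 lower (median 0.10). They were umps (ENSDARG00000012215), the enzyme that follows dhodh in the pathway, at 0.27 ± 0.07 (adjusted p = 0.0261), the ribonucleotide reductase subunit rrm2b at 0.41 ± 0.08 (adjusted p = 0.00478) and the thymidylate kinase dtymk at 0.44 ± 0.13 (adjusted p = 0.0401). The umps libraries read 153, 129 and 141 CPM in control DMSO, 99.5, 98.1 and 104 in control leflunomide, 96.6, 95.2 and 103 in tif1g DMSO and 81.5, 84.5 and 87.0 in tif1g leflunomide. Leflunomide libraries were below DMSO libraries without overlap in both kinds of embryo, and the drop was larger in control embryos. The first enzyme of the pathway, cad, had 0.18 ± 0.06 and was not called (adjusted p = 0.0651). Coenzyme Q synthesis, the pathway that supplies the electron acceptor of DHODH, had 0 of 14 called by edgeR, DESeq2 or limma voom (median 0.04, 1 gene at an unadjusted p below 0.05), and this median changed sign with the scaling. Purine synthesis had 4 of 19 called higher (21.1%, median 0.19), glycolysis 4 of 30 (13.3%, median 0.17) and the TCA cycle 6 of 21 (28.6%, median 0.14). The TCA list held the 1 lower call of these lists, fh (fumarate hydratase, ENSDARG00000109774), at -0.32 ± 0.08 (adjusted p = 0.0158). The fh symbol is shared with another identifier. Of the targets of the aryl hydrocarbon receptor, which leflunomide can activate, 1 of 14 was called higher, aldh3b1 at 0.31 ± 0.09 (adjusted p = 0.0302), and the list median was -0.02.

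Histones had 12 of 31 genes called higher and 0 lower, and their median of 0.37 was the highest of the 49 lists. For hist1h2a3 (ENSDARG00000070280), which was among the genes with the smallest adjusted p of all, the libraries read 218, 190.0 and 195 CPM in control DMSO, 123, 113 and 139 in control leflunomide, 331, 346 and 375 in tif1g DMSO and 312, 309 and 339 in tif1g leflunomide. Tif1g libraries were all above control libraries, and leflunomide lowered the level without overlap in control embryos. Its interaction was 0.56 ± 0.08 (adjusted p = 0.000222), and it stayed called without replicate number 1 or 2, with adjusted p of 0.0191 and 0.0215. Histone genes occur in near-identical copies, so the split of reads between single genes is uncertain. The histone variant gene h3f3a had 0.32 ± 0.07 (adjusted p = 0.00478). Cell cycle and DNA replication genes, by comparison, had 5 of 76 called higher (6.58%, against 3.37% over all tested genes, median 0.11). The replication clamp gene pcna had 0.29 ± 0.06 (adjusted p = 0.00660) and ccnb1, cyclin B1, 0.32 ± 0.07 (adjusted p = 0.00646).

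Protein turnover and secretion families, added after values were seen, also held many calls. Of 41 proteasome subunit genes 22 were called higher and 0 lower (median 0.27), and of 20 genes of the translocon and signal peptidase 11 were higher and 0 lower (median 0.27). The proteasome subunit psmb3 had 0.43 ± 0.08 (adjusted p = 0.00174), and ssr2, a subunit of the translocon-associated complex, 0.46 ± 0.07 (adjusted p = 0.000882). Lysosomal cathepsins and hydrolases had 12 of 46 called higher and 0 lower (median 0.22). Their first member by p was psap (prosaposin) at 0.36 ± 0.06 (adjusted p = 0.00135). In serine synthesis and the integrated stress response, 8 of 39 were called higher and 0 lower, but the median was 0.09. They included ddit4 (ENSDARG00000037618), an inhibitor of TOR signalling, at 103, 100.9 and 104 CPM in control DMSO, 78.4, 78.8 and 81.1 in control leflunomide, 82.2, 71.2 and 82.5 in tif1g DMSO and 82.0, 78.6 and 81.6 in tif1g leflunomide. Control DMSO stood above the other 9 libraries, which lay within a narrow range. The interaction of ddit4 was 0.41 ± 0.07 (adjusted p = 0.00169).

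**Figure D4:**
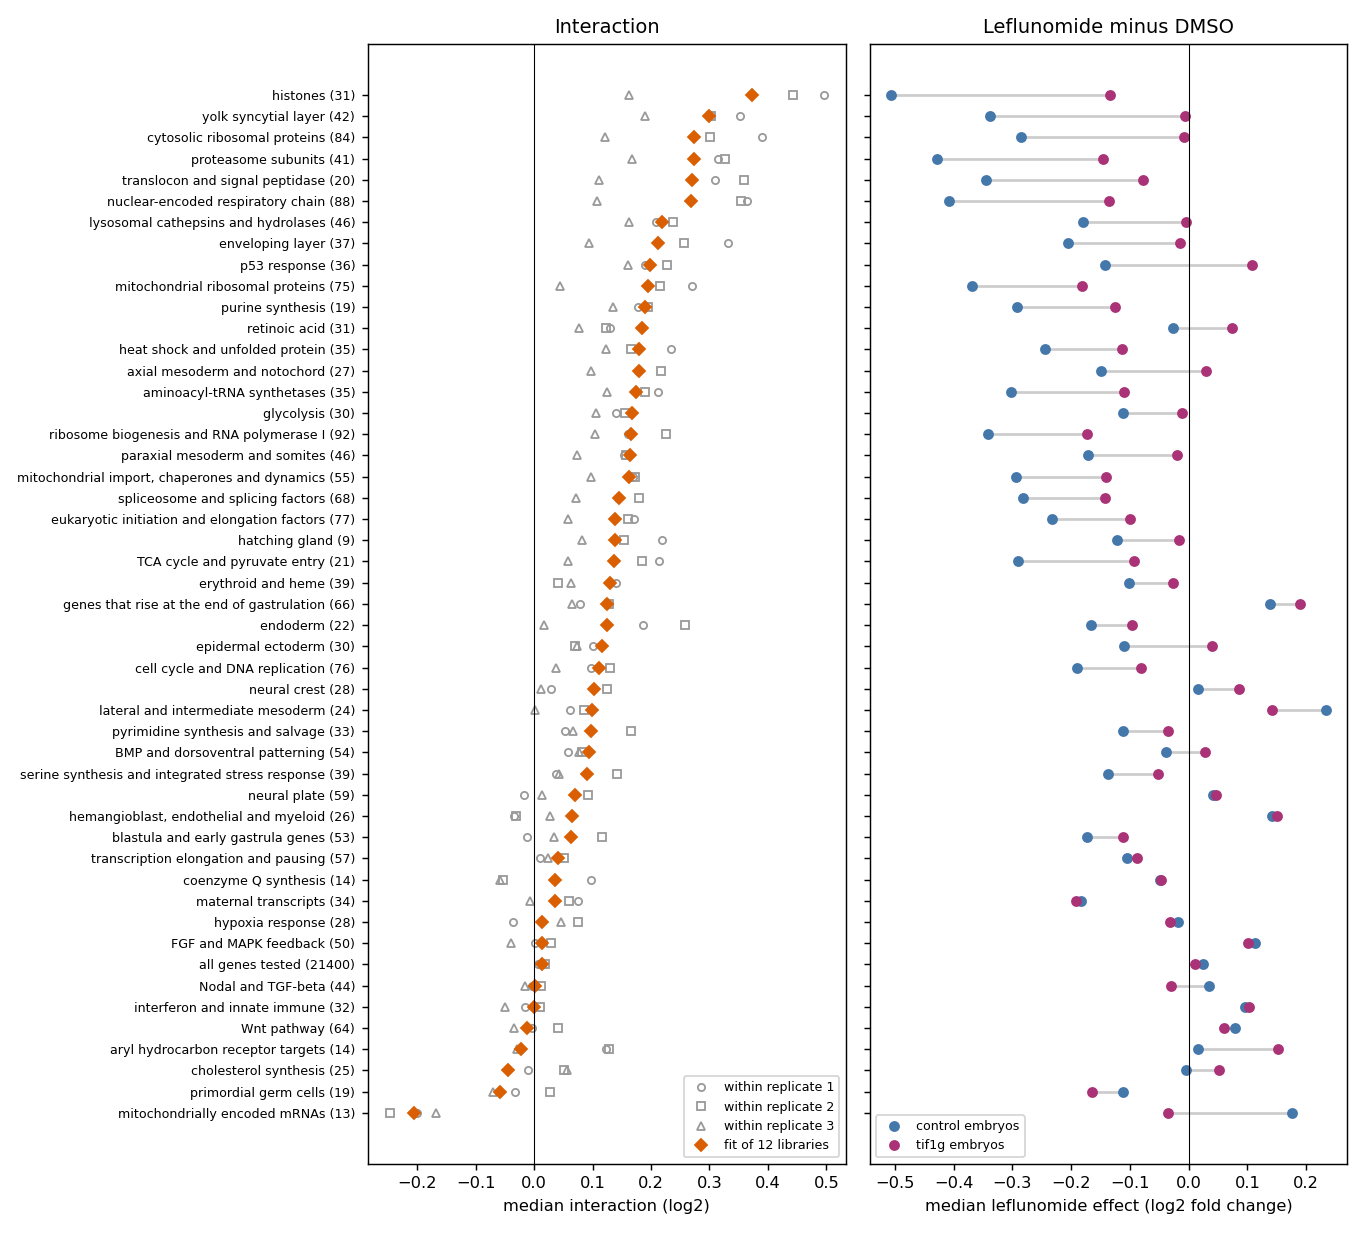
Left, the median interaction (log2, x axis) of each gene list and of all genes tested (number of tested genes in brackets), from the fit of 12 libraries and within each replicate number. Right, the median leflunomide effect (log2 fold change) in control and in tif1g embryos. Histones, yolk syncytial layer and ribosomal proteins head the lists at 0.37, 0.30 and 0.27, mitochondrially encoded mRNAs are last at -0.21, and the olfactory receptor family is not drawn.

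Within each of the 3 replicate numbers, the medians of ribosomal proteins, the respiratory chain, histones, the p53 list and mitochondrial mRNAs kept their sign, and each was smallest in size in number 3. For ribosomal proteins the median interaction was 0.39, 0.30 and 0.12 within numbers 1, 2 and 3, and for the nuclear-encoded respiratory chain 0.37, 0.35 and 0.11. With the scaling, 10 of the 49 list medians changed sign, those of coenzyme Q synthesis, transcription elongation, FGF, Nodal, hemangioblast, neural plate, interferon, hypoxia, maternal and blastula genes. Those of ribosomal proteins, the respiratory chain, histones, the yolk syncytial layer, the p53 list and mitochondrial mRNAs did not. Counts of called members moved as well. With upper-quartile factors and library totals in turn, higher calls numbered 9 and 4 in ribosome biogenesis and 6 and 3 in splicing factors. They numbered 6 and 3 in initiation and elongation factors, 1 and 0 in aminoacyl-tRNA synthetases, and 2 and 1 in the TCA cycle. Histones kept 11 and 14, and mitochondrial mRNAs had 10 and 10 lower. Without the block every list count above was 0, and without replicate number 1 or 2 no list with 5 or more called members kept a count above 3.

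Among tissue lists, the extraembryonic layers held the highest shares of calls. The yolk syncytial layer, which feeds yolk lipid to the embryo, had 14 of 42 genes called higher and 1 lower (median 0.30), with a median leflunomide effect of -0.34 in control and -0.01 in tif1g embryos. The nuclear receptor gene hnf4b (ENSDARG00000104742) read 51.9, 46.5 and 47.8 CPM in control DMSO, 35.6, 38.0 and 38.0 in control leflunomide, 29.4, 30.3 and 30.4 in tif1g DMSO and 33.3, 34.8 and 33.5 in tif1g leflunomide. Leflunomide libraries were below DMSO in control embryos and above DMSO in tif1g embryos, with no overlap in either. Its interaction was 0.56 ± 0.09 (adjusted p = 0.000882), and the difference of 0.17 between tif1g leflunomide and tif1g DMSO was not called (adjusted p = 0.113). Apolipoprotein genes were among the called members, such as apoa1b at 0.42 ± 0.08 (adjusted p = 0.00300), and the antifreeze-related gene afp4 (ENSDARG00000095863, 1 of 2 genes of that symbol in the list) had 0.58 ± 0.12 (adjusted p = 0.0188). The 1 member called lower was slc16a6, a monocarboxylate transporter, at -0.48 ± 0.12 (adjusted p = 0.0171). The enveloping layer, the outer epithelium, had 8 of 37 called higher and 0 lower (median 0.21), most of them keratins. The keratin gene krt4 (ENSDARG00000017624) read 6599, 5864 and 5905 CPM in control DMSO, 5152, 5077 and 5208 in control leflunomide, 5837, 5502 and 5796 in tif1g DMSO and 5971, 5911 and 5749.7 in tif1g leflunomide. Control leflunomide lay below the other 9 libraries. The krt4 interaction was 0.29 ± 0.06 (adjusted p = 0.00360).

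Summed over its defining markers, the enveloping layer stood at 14068 to 15299 CPM in control DMSO and 12498 to 12981 CPM in control leflunomide, and in tif1g embryos at 11692 to 12543 CPM with DMSO and 12517 to 12679 CPM with leflunomide, and 5 of its 10 tested markers were called higher. The yolk syncytial layer sum was 4746 to 5235, 3868 to 4187, 2893 to 3340 and 2974 to 3228 CPM in the same order, and 4 of its 6 tested markers were called higher. Both sums were highest in control DMSO without overlap. The same held for paraxial mesoderm, at 586 to 629, 494 to 546, 557 to 562 and 501 to 549 CPM in the same order. In the remaining sets control DMSO overlapped other groups. The 10 sets also cover germ cells, notochord, paraxial mesoderm, neural plate, epidermis, endoderm, blood and vessel precursors and hatching gland. No marker that was matched to a gene was at 0 in all libraries. Of the 6 blood and vessel markers 5 were matched. Outside the extraembryonic layers, markers were called in 2 sets, with 1 in notochord and 1 in paraxial mesoderm. The part of layer content in the interaction was not tested.

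**Figure D5:**
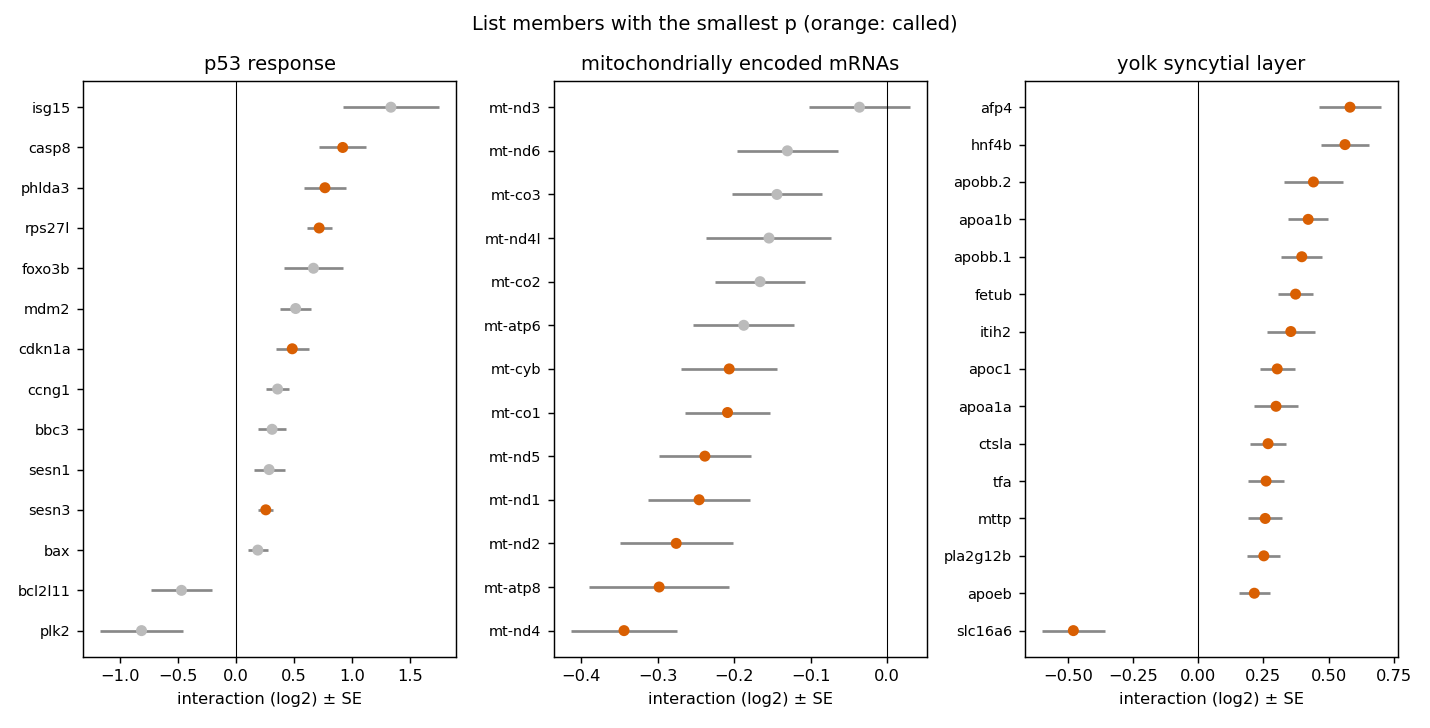
Interaction (log2, x axis) ± SE of members with the smallest p among those reported, at most 15 a list, of the p53 response, the mitochondrially encoded mRNAs and the yolk syncytial layer. Orange points were called. All 13 mitochondrial mRNAs lie below 0, the called p53 targets lie from 0.26 to 0.92, and in the yolk syncytial layer 14 called members lie above 0 and slc16a6 at -0.48.

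Shares of calls in patterning and lineage lists lay on both sides of those over all tested genes, 3.37% higher and 1.62% lower. Of FGF and MAPK feedback genes 0 of 50 were called by edgeR, of lateral and intermediate mesoderm 0 of 24, of primordial germ cell genes 0 of 19 and of hatching gland genes 0 of 9, with medians of 0.01, 0.10, -0.06 and 0.14. An unadjusted p below 0.05 was found for 8, 6, 2 and 2 of them, and DESeq2 and limma voom each called 1 FGF and MAPK feedback gene and 1 hatching gland gene and none in the other two lists. Nodal and TGF-beta, the pathway whose Smad proteins TIF1γ binds, had 1 of 44 called higher (2.27%), the receptor gene tgfbr1 (ENSDARG00000042259) at 0.31 ± 0.09 (adjusted p = 0.0314). BMP and dorsoventral patterning had 2 of 54 higher (3.7%) and 1 lower (1.85%), and the Wnt pathway 2 of 64 higher (3.12%) and 3 lower (4.69%). In the BMP list the receptor genes bmpr1ba and bmpr2 (ENSDARG00000011941) differed in sign, at 0.36 ± 0.11 (adjusted p = 0.0407) and -0.43 ± 0.13 (adjusted p = 0.0481). Paraxial mesoderm and somites had 5 of 46 called higher (10.9%), axial mesoderm 2 of 27 (7.41%) and endoderm 2 of 22 (9.09%), each with 0 lower. The notochord gene noto had 0.40 ± 0.12 (adjusted p = 0.0383). In the neural plate 2 of 59 were called lower and 0 higher, although 35 of the 59 had an interaction above 0 (median 0.07). The called genes were zic5 at -0.86 ± 0.22 (adjusted p = 0.0194) and foxb1 (ENSDARG00000089042) at -0.41 ± 0.12 (adjusted p = 0.0345). The zic5 transcription factor gene (ENSDARG00000016022) read 4.28, 4.19 and 4.63 CPM in control DMSO, 4.64, 4.79 and 4.46 in control leflunomide, 5.88, 6.66 and 5.86 in tif1g DMSO and 2.92, 4.30 and 3.54 in tif1g leflunomide. It was lower with leflunomide in tif1g embryos without overlap, while the control groups overlapped. The neural crest RNA crestin had -0.43 ± 0.12 (adjusted p = 0.0360) and was the 1 call among 28 genes of its list. Of these 28, 18 had an interaction above 0 (median 0.10). Epidermal ectoderm had 1 of 30 called higher, and retinoic acid genes 2 of 31 higher and 1 lower. Lists of stage had 1 of 34 maternal transcripts, 1 of 53 blastula and early gastrula genes and 3 of 66 late gastrula genes called higher, and 1 of the last set lower.

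Blood genes, which the knockdown is known for, gave 0 of 39 calls in the erythroid and heme list by edgeR (median 0.13), with 4 genes at an unadjusted p below 0.05 and 0 calls by DESeq2 and limma voom. Over all tested genes 4.99% were called, 3.37% higher and 1.62% lower. At that share a list of 39 would hold few calls, so 0 does not set blood genes apart. The stem cell leukemia factor gene tal1 (ENSDARG00000019930) read 5.15, 1.48 and 0.829 CPM in control DMSO, 7.45, 4.36 and 1.13 in control leflunomide, 0.350, 0.174 and 0.318 in tif1g DMSO and 0.948, 1.24 and 0.420 in tif1g leflunomide. The spread among its control libraries was larger than the difference between DMSO and leflunomide. The tal1 interaction was 0.83 ± 0.62 (adjusted p = 0.528), from 5 to 223 counts a library. Counts of the erythroid factor gene gata1a were 3 to 14 per library, below the filter, so a difference was not detectable at this depth. In hemangioblast, endothelial and myeloid genes, 3 of 26 were called higher (11.5%) and 0 lower. Of the 26, 14 had an interaction above 0, and the median of 0.06 changed sign with the scaling. The called genes were cebpa at 0.28 ± 0.08 (adjusted p = 0.0320), the vascular receptor kdr at 0.34 ± 0.08 (adjusted p = 0.0111) and lcp1, a leukocyte actin-bundling protein, at 0.24 ± 0.07 (adjusted p = 0.0466).

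Transcription elongation, the step at which TIF1γ is known to act in blood, had 2 of 57 genes higher and 2 lower (3.51% each, median 0.04), against 3.37% and 1.62% over all tested genes. The lower genes included mllt10 (ENSDARG00000045401), for a partner of the methyltransferase Dot1l, whose libraries read 145, 154 and 152 CPM in control DMSO, 186, 178 and 172 in control leflunomide, 199, 209 and 193 in tif1g DMSO and 202, 191 and 199 in tif1g leflunomide. Control DMSO lay below the other 9 libraries, and the tif1g groups overlapped. The mllt10 interaction was -0.27 ± 0.07 (adjusted p = 0.0144). The higher genes were ssrp1 (ENSDARG00000037397), a subunit of the histone chaperone FACT, at 0.24 ± 0.07 (adjusted p = 0.0390) and the Integrator subunit ints10 at 0.30 ± 0.09 (adjusted p = 0.0480). Cholesterol synthesis had 0 of 25 higher and 1 lower (4%), the sterol regulator srebf1 at -0.79 ± 0.21 (adjusted p = 0.0228). Interferon and innate immune genes had 0 of 32 called by edgeR, DESeq2 or limma voom, with 4 at an unadjusted p below 0.05, and hypoxia response 3 of 28 higher, with ca9, a carbonic anhydrase, at 0.46 ± 0.10 (adjusted p = 0.00724).

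The 12 genes with the largest positive interaction among named genes of a mean log2 CPM of at least 1 ran from 0.72 to 0.97. They were nkx2-4 (ENSDARG00000075107), casp8, nucb2 (ENSDARG00000036291), mif, xirp1 (ENSDARG00000030722), stra6, phlda3, sec14l1 (ENSDARG00000103991), srf (ENSDARG00000102867), zbtb12.1, chordc1 (ENSDARG00000003973) and rps27l. In nucb2, for a calcium-binding protein of the secretory pathway, the libraries read 6.13, 6.76 and 6.66 CPM in control DMSO, 5.41, 5.73 and 4.85 in control leflunomide, 4.23, 4.41 and 3.85 in tif1g DMSO and 7.03, 6.28 and 5.43 in tif1g leflunomide. Leflunomide was below DMSO in control embryos and above it in tif1g embryos, without overlap in either. The nucb2 interaction was 0.88 ± 0.20 (adjusted p = 0.00998), and the rise in tif1g embryos was called at 0.58 (adjusted p = 0.0114) while the control difference of -0.29 was not (adjusted p = 0.119). The transcription factor gene srf read 7.58, 8.34 and 8.32 CPM in control DMSO, 7.45, 6.74 and 6.37 in control leflunomide, 6.09, 5.14 and 5.08 in tif1g DMSO and 7.83, 8.11 and 6.97 in tif1g leflunomide. It had the same order, again without overlap. The srf interaction was 0.73 ± 0.19 (adjusted p = 0.0171). The cytokine gene mif (ENSDARG00000071336) differed in shape, at 9.06, 8.13 and 8.04 CPM in control DMSO, 5.25, 4.66 and 5.06 in control leflunomide, 3.81, 3.71 and 4.13 in tif1g DMSO and 4.00, 4.23 and 4.38 in tif1g leflunomide. Control DMSO stood above the other 9 libraries, and the tif1g groups overlapped. The mif interaction was 0.87 ± 0.21 (adjusted p = 0.0109), and that of stra6, the retinol uptake receptor, 0.79 ± 0.22 (adjusted p = 0.0259).

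The 12 with the largest negative interaction ran from -1.30 to -0.97. They were nipal4, gpr22 (ENSDARG00000004592), hpca, cyld3, scx, angptl1, pclo, brinp3, gcnt7, omg (ENSDARG00000089444), cccdc110 and gad3. Their levels were low, between 0.915 and 12.6 CPM in every library. The magnesium transporter gene nipal4 (ENSDARG00000059365) read 3.74, 2.99 and 4.28 CPM in control DMSO, 6.65, 5.21 and 7.82 in control leflunomide, 3.43, 2.92 and 2.08 in tif1g DMSO and 3.23, 1.07 and 2.00 in tif1g leflunomide. Control leflunomide stood above the other 9 libraries. Its interaction was -1.30 ± 0.32 (adjusted p = 0.0158). The tendon transcription factor gene scx (ENSDARG00000035695) read 2.12, 2.71 and 3.00 CPM in control DMSO, 5.58, 6.22 and 6.47 in control leflunomide, 7.63, 9.96 and 6.32 in tif1g DMSO and 8.50, 8.27 and 7.63 in tif1g leflunomide. Control DMSO stood below the other 9 libraries, and the tif1g groups overlapped. The scx interaction was -1.18 ± 0.22 (adjusted p = 0.00261), with a rise of 1.22 in control embryos (adjusted p = 3.98e-07) and a difference of 0.04 in tif1g embryos (adjusted p = 0.923).

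Olfactory receptor genes, the family whose summed level set control DMSO apart, had 49 of 147 members tested and a median interaction of -0.64. Within replicate numbers 1, 2 and 3, from log2 of CPM plus 1, the median was -0.29, -0.21 and -0.23. A low gene can pass the filter through the groups where it is high. The tested members may therefore favour low levels in control DMSO, and the family median is no separate support. Of the tested members 2 were called lower (4.08%, against 1.62% over all tested genes) and 0 higher. Their median leflunomide effect was 0.81 in control and 0.10 in tif1g embryos. The called members were or70a13 at -0.56 ± 0.11 (adjusted p = 0.00286) and or42e1 at -3.58 ± 0.82 (adjusted p = 0.00866). The or42e1 value was the largest in size of all tested genes, but its SE was wide and its levels are not given here. Members of this family share sequence with near-identical copies, so their counts are uncertain.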

How the data were processed

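Total RNA of 12 pools of zebrafish embryos was sequenced from directional libraries depleted of ribosomal RNA, per the labels' protocols. The submitters' processing notes name FastQC, cutadapt, TopHat2 2.0.11, HTSeq and Cufflinks 2.2.1, and the genome build GRCz11. The deposited values are raw counts per gene for 32520 Ensembl identifiers, and nothing was normalised in them. No source used here gives the strand setting or annotation release, so genes that overlap on opposite strands are uncertain. A name table gave symbols for 29201 identifiers. It drops some letters, so 3151 tested genes share a symbol and are given by identifier where named among the largest changes.

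Genes passing filterByExpr in edgeR 4.0.16 (R 4.3.3) were fitted in 1 robust quasi-likelihood model of 4 group means plus replicate number, with TMM factors and 6 residual degrees of freedom. P-values were adjusted by Benjamini-Hochberg over all 21400 tested genes, and SEs come from the F statistic. The script was tested on simulated data. Deviations from group means correlated between libraries of the same number in other groups (r from 0.149 to 0.254 over 18 pairs). Between different numbers r was -0.159 to -0.027 over 36 pairs. Deviations within a group sum to 0, so these negative values follow from the positive ones and are no separate support. What a number stands for is not known from the sources used here. Values within a replicate number used log2 of CPM plus 1. Replicates differed by a chi-square per degree of freedom of 7.64 to 16.4, so spread between pools and not counting error limits abundant genes.

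Named genes were trim33, dhodh, gata1a and tal1, the 12 largest called interactions each way with a mean log2 CPM of at least 1, 1 sign in all replicate numbers and a symbol that is no clone name, and up to 3 called members of each list by p. Other list members were named after their values were seen, and a few genes are not reported here. The comparison, 44 lists and tests were chosen with earlier results of these data known, and 5 families were added after values were seen. The 49 lists are described by counts and medians without a test. Alternatives were other scalings and filters, DESeq2 1.42.0, limma 3.58.1 (voom), other blocks, a fit without the robust option, and leaving out replicate numbers or libraries. Sequences and coordinates were not used here.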

Additional observations from a re-analysis of the deposited data

Results flagged for a closer look

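The effect of leflunomide differed between control and tif1g embryos by a test of the difference itself (the interaction in edgeR's quasi-likelihood test with replicate number as a block) in 721 genes with a higher and 346 with a lower leflunomide to DMSO ratio in tif1g embryos. Under that test the 12 named genes furthest above 0 had interactions on the log2 scale of nkx2-4 at 0.97, casp8 at 0.92, nucb2 at 0.88, mif at 0.87, xirp1 at 0.80, stra6 at 0.79, phlda3 at 0.77, sec14l1 at 0.76, srf at 0.73, zbtb12.1 at 0.73, chordc1 at 0.73 and rps27l at 0.72. The 12 furthest below 0 had nipal4 at -1.30, gpr22 at -1.23, hpca at -1.23, cyld3 at -1.19, scx at -1.18, angptl1 at -1.08, pclo at -1.08, brinp3 at -1.07, gcnt7 at -1.02, omg at -1.002, cccdc110 at -1.001 and gad3 at -0.97. All 24 had the same sign within each of the 3 replicate numbers, which the choice of these genes required, and none was called without the block. Over 25 alternatives the number that called a gene ran from 8 for gad3 to 24 for rps27l. It was 9 for chordc1 and 10 each for nkx2-4, xirp1 and zbtb12.1. The chordc1 interaction was 1.43, 0.46 and 0.10 within replicate numbers 1, 2 and 3. Groups of 3 libraries are too small for a test of single outlying libraries.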

How the results depend on the processing

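The replicate block treats libraries of the same number as paired. Dropping it left the interaction with 0 genes higher and 0 lower. Leflunomide was then left with 1899 genes higher in control embryos, and with 41 higher and 91 lower in tif1g embryos. With upper-quartile factors 387 interactions were higher. With library totals alone 244 were higher and 677 lower, leflunomide called 5129 higher and 1859 lower in control embryos, and 892 higher and 410 lower in tif1g embryos. A block nested in morpholino gave 2307 higher and 2383 lower genes for the knockdown in leflunomide. Leaving out a library or replicate number gave 17 to 1179 interactions higher and 2 to 546 lower. The same range was 1792 to 2962 higher and 2568 to 3882 lower for leflunomide in control embryos, and 169 to 720 higher and 288 to 1243 lower in tif1g embryos. For the knockdown it was 3211 to 4312 higher and 3535 to 4829 lower in DMSO, and 2519 to 3816 higher and 2725 to 3743 lower in leflunomide. In the trim33 interaction, which was not called, the sign changed with upper-quartile factors (-0.016) and library totals (-0.057), and values without a library or number ran from -0.012 to 0.076. No called named gene changed sign, which the choice of called genes and the reuse of the same libraries made likely. Of the 108 called, 70 were still called with library totals, 0 without the block, and 3, 5 and 85 without replicate numbers 1, 2 and 3. The causes were not tested. Depth limits what gata1a can show. For tal1 the limits are counts of 5 to 38 in tif1g libraries and the spread among control libraries.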

Other observations

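Some genes with the smallest p of the interaction lay outside the rule for named genes and were chosen after their values were seen. The glycerol-3-phosphate dehydrogenase gene gpd1 (ENSDARG00000043180), whose product oxidises NADH in the cytosol, stood at 115 ± 17.1 CPM with DMSO and 77.3 ± 15.7 CPM with leflunomide in control embryos, and at 160.4 ± 21.1 and 154 ± 22.8 CPM in tif1g embryos (mean ± SD, n = 3). Its interaction was 0.51 ± 0.07 (log2 ± SE, adjusted p = 0.000222). The mitochondrial creatine kinase gene ckmt1b stood at 85.4 ± 1.57 CPM with DMSO and 58.6 ± 2.83 CPM with leflunomide in control embryos, and at 71.3 ± 7.80 and 70.7 ± 9.504 CPM in tif1g embryos, with an interaction of 0.53 ± 0.08 (log2 ± SE, adjusted p = 0.000642). The nucleoside diphosphate kinase gene nme1 stood at 187 ± 20.8 CPM with DMSO and 129 ± 12.5 CPM with leflunomide in control embryos, and at 117 ± 2.16 and 114 ± 8.02 CPM in tif1g embryos, with an interaction of 0.50 ± 0.08 (log2 ± SE, adjusted p = 0.000642). All 3 fell with leflunomide in control embryos, and in tif1g embryos the difference was not called (adjusted p = 0.538, 0.939 and 0.786 in turn).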
